A study of Homo sapiens with 10 samples.

Results

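The 8 genes described here encode the initiator caspases CASP2, CASP8 and CASP9, the executioner caspase CASP6, the inhibitors of apoptosis XIAP, BIRC2 and BIRC3, and cytochrome c (CYCS). They were taken by symbol from a table of 58735 gene rows, and all 8 were found there and passed the filter that left 14504 genes for testing. The ADC group held 5 libraries of CH157-MN cells given 100 nM of a humanised conjugate of an anti-SSTR2 antibody with MMAF, a tubulin inhibitor, and collected 3 days later. The PBS group held 5 libraries of the same cells given phosphate-buffered saline, with no day of harvest in the labels. CH157-MN is a single established human meningioma line, and no allele or other agent is named for either group.

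Caspases are cysteine proteases made as inactive precursors, and they are switched on by assembly and cleavage, which RNA counts do not measure. Death receptors recruit caspase-8. Damaged mitochondria release cytochrome c, which binds the scaffold APAF1 so that caspase-9 is recruited, and caspase-2 is recruited by the PIDDosome. Caspase-8 and caspase-9 act on executioners, the class in which caspase-6 is placed here. XIAP binds and blocks caspases directly, while the paralogs BIRC2 and BIRC3 are ubiquitin ligases of tumour necrosis factor receptor complexes. Cells held in mitosis by tubulin inhibitors can die through the mitochondrial route.

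Promoter sequences of 4 genes are shown because their values carry the results below: CASP9, BIRC2 and CYCS had no overlap between groups, and BIRC3 is the neighbour and paralog of BIRC2. All 8 genes matched the RefSeq promoter table (GRCh38.p14), which gives 250 bases before and 50 bases after a start site. Where it lists several start sites, the entry nearest the deposited gene start was taken, and for CASP9 that entry lies 1744 bases from it. Capitals mark matches to 1 motif per sequence, searched on both strands: GGGCGG (the GC box) in CASP9, TGACGT (the core of the cyclic AMP response element) in BIRC2 and CYCS, and the kappaB consensus of NF-kB in BIRC3. Sequences run 5′ to 3′ on the strand of the gene.
CASP9 (GRCh38.p14 chr1:15524741-15525040, minus strand): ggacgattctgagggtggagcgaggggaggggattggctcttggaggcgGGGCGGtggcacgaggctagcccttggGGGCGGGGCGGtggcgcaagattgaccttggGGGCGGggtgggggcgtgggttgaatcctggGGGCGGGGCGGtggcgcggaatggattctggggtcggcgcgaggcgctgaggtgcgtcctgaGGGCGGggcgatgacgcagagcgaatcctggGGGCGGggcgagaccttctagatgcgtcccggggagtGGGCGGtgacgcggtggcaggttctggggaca
BIRC2 (GRCh38.p14 chr11:102346964-102347263, plus strand): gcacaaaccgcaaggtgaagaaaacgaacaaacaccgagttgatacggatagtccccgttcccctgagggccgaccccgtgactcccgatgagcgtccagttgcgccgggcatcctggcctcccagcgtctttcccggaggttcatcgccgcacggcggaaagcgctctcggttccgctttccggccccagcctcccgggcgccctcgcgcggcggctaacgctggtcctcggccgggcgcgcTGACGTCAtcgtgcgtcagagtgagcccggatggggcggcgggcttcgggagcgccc
BIRC3 (GRCh38.p14 chr11:102317234-102317533, plus strand): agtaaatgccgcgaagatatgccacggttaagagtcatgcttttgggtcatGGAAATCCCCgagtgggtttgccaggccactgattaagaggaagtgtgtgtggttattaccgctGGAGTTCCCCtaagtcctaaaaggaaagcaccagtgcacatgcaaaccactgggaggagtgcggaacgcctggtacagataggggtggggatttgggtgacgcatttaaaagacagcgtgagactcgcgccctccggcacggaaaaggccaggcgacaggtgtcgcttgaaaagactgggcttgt
CYCS (GRCh38.p14 chr7:25125211-25125510, minus strand): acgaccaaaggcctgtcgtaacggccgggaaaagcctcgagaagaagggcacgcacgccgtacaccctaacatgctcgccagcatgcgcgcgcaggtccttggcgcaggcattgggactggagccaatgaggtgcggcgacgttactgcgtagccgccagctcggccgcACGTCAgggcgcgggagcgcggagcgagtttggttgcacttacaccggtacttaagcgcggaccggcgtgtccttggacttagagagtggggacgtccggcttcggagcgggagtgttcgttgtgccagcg

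The kappaB consensus matched 1 of 8 promoters, that of BIRC3, where it occurred 2 times, from positions -199 and -135 relative to the start site. It occurred in 11.3% of all 35116 promoters in the table. TGACGT or its reverse complement matched 2 of 8, BIRC2 (overlapping matches on opposite strands from -7 and -5) and CYCS (from -81), against 7.98% of all promoters. GC boxes were found in 6 of 8, most often in CASP9, with 9 matches, and in none of the BIRC3 and CYCS windows, against 45% of all promoters. A match describes letters in the window and is not evidence of binding.

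In the ADC libraries CASP9 was higher, and BIRC2, CYCS, CASP2 and BIRC3 were lower, while CASP6, CASP8 and XIAP were not called. This makes 1 of 8 higher and 4 of 8 lower by edgeR's quasi-likelihood test (Benjamini-Hochberg adjusted p under 0.05), where 20.8% of the 14504 tested genes were called, 10.8% higher and 10% lower. With scaling to library size alone, 63.3% of calls over all genes were higher instead of 51.8%, and 3 of the 8 genes and 20% of all tested genes were called. The median log2 fold change (ADC minus PBS) was -0.11 over the 8 genes and -0.0022 over all tested genes. The groups did not overlap for 1 gene that was higher and 2 that were lower, against 7.29% of tested genes that were higher without overlap, 6.95% that were lower, and 14.2% in either direction. All changes were small: the largest was 1.29-fold, for CASP9. The calls of CASP2 and BIRC3 depended on single libraries, as given beside each.

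**Figure D1:**
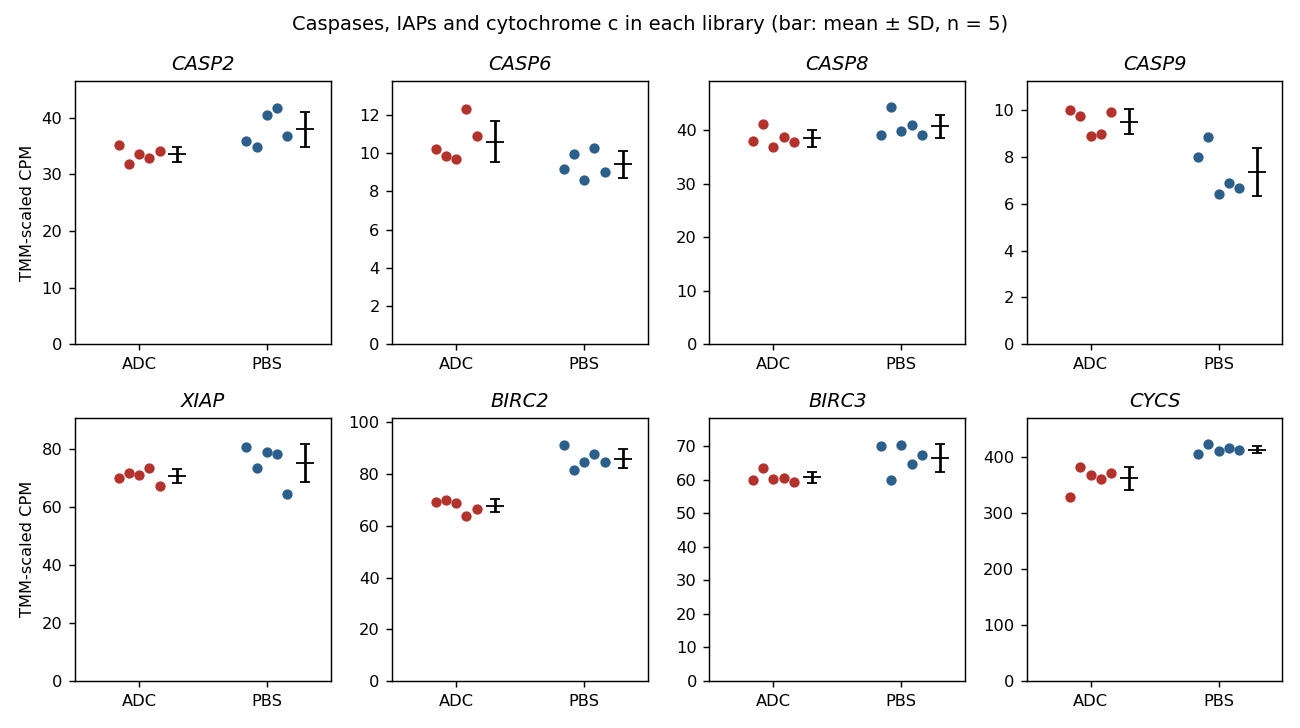
TMM-scaled CPM (vertical axis, from 0) of each gene in 5 ADC and 5 PBS libraries; points are libraries, and the bars beside them the mean ± SD. CASP9 lies higher and BIRC2 and CYCS lie lower in every ADC library than in any PBS library, while the groups overlap for the other 5 genes.

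Among the initiators, CASP9 (ENSG00000132906, chromosome 1, 15490832 to 15526534 on hg38) had 10.01, 9.76, 8.89, 8.97 and 9.92 CPM in ADC libraries 1 to 5, against 7.998, 8.86, 6.40, 6.90 and 6.68 CPM in PBS libraries 1 to 5, where CPM are counts scaled by library size and TMM factors. Every ADC library exceeded every PBS library, by a narrow margin between the lowest ADC value, in library 3, and the highest PBS value, in library 2. CASP9 averaged 9.51 ± 0.537 CPM in ADC and 7.37 ± 1.03 CPM in PBS libraries (SD, n = 5 each). It rose by 0.37 on the log2 scale (SE 0.11, 95% interval 0.15 to 0.58, edgeR adjusted p = 0.014). It rested on 261 to 357 counts per ADC library and 188 to 299 per PBS library, and 2.01% of its exonic bases overlap a gene on the other strand. The call held without any single library, at adjusted p of up to 0.043.

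CASP2 (ENSG00000106144, chromosome 7, 143288215 to 143307696), the caspase of the PIDDosome, had 35.2, 31.8, 33.5, 32.9 and 34.0 CPM in ADC libraries 1 to 5, against 35.8, 34.7, 40.5, 41.7 and 36.8 CPM in PBS libraries 1 to 5. ADC library 1 lay within the PBS range and the other 4 below it, and PBS libraries 3 and 4 were the highest of all 10. Its mean was 33.5 ± 1.27 CPM in ADC and 37.9 ± 3.04 CPM in PBS libraries (SD, n = 5 each). The log2 fold change was -0.18 (SE 0.059, edgeR adjusted p = 0.031). The call ended without ADC replicate 2, 3 or 4, at adjusted p of 0.085, 0.060 and 0.071, and without PBS replicate 3 or 4, at adjusted p of 0.097 and 0.11, in the same test.

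CASP8 (ENSG00000064012, chromosome 2, 201233443 to 201287711), the death receptor initiator, had 37.9, 41.2, 36.9, 38.8 and 37.9 CPM in ADC libraries 1 to 5, against 39.2, 44.4, 39.9, 40.9 and 39.2 CPM in PBS libraries 1 to 5. ADC library 2 exceeded 4 of the 5 PBS libraries, and library 2 was the highest of each group. The difference did not pass the test, with a log2 fold change of -0.080 (95% interval -0.19 to 0.030, edgeR adjusted p = 0.32). Without PBS replicate 2 the value was -0.046 (adjusted p = 0.62 in the same test).

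The executioner CASP6 (ENSG00000138794, chromosome 4, 109688622 to 109703583), which cleaves nuclear lamins, had 10.2, 9.87, 9.71, 12.3 and 10.9 CPM in ADC libraries 1 to 5, against 9.16, 9.96, 8.62, 10.3 and 9.01 CPM in PBS libraries 1 to 5. The values overlapped, with the highest in ADC library 4. Its log2 fold change of 0.17 (95% interval -0.028 to 0.37) was close in size to that of CASP2 but did not pass (edgeR adjusted p = 0.23). It had 253 to 361 counts per library.

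Of the inhibitors, BIRC2 (ENSG00000110330, chromosome 11, 102347211 to 102378670) had the largest change. It had 69.3, 70.0, 68.9, 64.0 and 66.4 CPM in ADC libraries 1 to 5, against 91.2, 81.8, 84.7, 87.9 and 84.5 CPM in PBS libraries 1 to 5. The highest ADC library, 2, lay at 70.0 CPM and the lowest PBS library, also 2, at 81.8 CPM. BIRC2 averaged 67.7 ± 2.48 CPM in ADC and 86.0 ± 3.62 CPM in PBS libraries (SD, n = 5 each), and fell by 0.34 on the log2 scale (SE 0.042, 95% interval -0.43 to -0.26, edgeR adjusted p = 4.0e-07). That is a ratio of 0.787, the level in ADC over that in PBS. The call held under every alternative run, with log2 fold changes of -0.36 to -0.32, and 72.1% of called genes changed by less in either direction.

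BIRC3 (ENSG00000023445, chromosome 11, 102317450 to 102339403) ends 7807 bases before BIRC2 begins, on the same strand, and is a well known target of NF-kB. It had 59.9, 63.4, 60.1, 60.6 and 59.2 CPM in ADC libraries 1 to 5, against 69.9, 59.9, 70.3, 64.5 and 67.3 CPM in PBS libraries 1 to 5. PBS library 2 lay within the ADC range, and the other 4 PBS libraries lay above it. The gene averaged 60.6 ± 1.60 CPM in ADC and 66.4 ± 4.29 CPM in PBS libraries (SD, n = 5 each). It fell by 0.13 on the log2 scale (SE 0.047, 95% interval -0.23 to -0.034), narrowly past the threshold (edgeR adjusted p = 0.046). The call was lost on leaving out any of 7 libraries (ADC replicate 1, 3, 4 or 5, or PBS replicate 1, 3 or 5), at adjusted p of 0.087 to 0.14 in the same test. Its promoter, printed above, is the only one of the 8 with kappaB matches, against 11.3% of all 35116 promoters, and binding was not tested.

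XIAP (ENSG00000101966, chromosome X, 123859724 to 123913979), the direct caspase inhibitor, had 69.7, 71.7, 70.8, 73.4 and 67.0 CPM in ADC libraries 1 to 5, against 80.5, 73.2, 79.0, 78.0 and 64.5 CPM in PBS libraries 1 to 5. PBS library 5 was the lowest of all 10, while the other PBS libraries reached from 73.2 to 80.5 CPM. The difference did not pass the test, with a log2 fold change of -0.088 (95% interval -0.19 to 0.014, edgeR adjusted p = 0.23). Without PBS replicate 5 it passed, at -0.14 and adjusted p = 0.035. Counts of its copies, BIRC8 and the XIAP pseudogenes, came to at most 0.234% of its own.

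CYCS (ENSG00000172115, chromosome 7, 25120091 to 25125361), which carries electrons in respiration and assembles the apoptosome once released, was the most abundant of the 8. It had 329, 381, 367, 360 and 371 CPM in ADC libraries 1 to 5, against 404, 422, 410, 416 and 412 CPM in PBS libraries 1 to 5. Every ADC library lay below every PBS library, and ADC library 1 was the lowest. CYCS averaged 361 ± 19.9 CPM in ADC and 413 ± 6.72 CPM in PBS libraries (SD, n = 5 each), so the spread in ADC exceeded that in PBS. It fell by 0.19 on the log2 scale (SE 0.034, 95% interval -0.26 to -0.12, edgeR adjusted p = 0.00011), and the call held under every alternative run. Of 40 CYCS pseudogene rows, 10 had counts, which came to 1.32% to 2.17% of those of CYCS. Adding them left the log2 fold change at -0.19. In bulk RNA, fewer cells of a type and less RNA per cell cannot be told apart.

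Per kilobase of the gene length listed by the authors, CYCS stood first in both groups, with a level of 81.1 ± 4.5 CPM per kb in ADC and 92.6 ± 1.5 CPM per kb in PBS libraries (SD, n = 5 each). BIRC2 came next, at 14.9 ± 0.5 CPM per kb in ADC and 19.0 ± 0.8 in PBS libraries, and CASP9 last, at 1.80 ± 0.10 in ADC and 1.40 ± 0.20 in PBS libraries. The levels of BIRC3 and XIAP, which followed BIRC2, had overlapping ranges in both groups (8.06 ± 0.21 and 7.81 ± 0.27 CPM per kb in ADC, 8.83 ± 0.57 and 8.31 ± 0.72 in PBS). In ADC libraries CASP6 (5.46 ± 0.55) and CASP8 (5.32 ± 0.22) overlapped and both lay above CASP2 (4.18 ± 0.16). In PBS libraries CASP8 (5.62 ± 0.30) lay above CASP6 (4.84 ± 0.36), which overlapped CASP2 (4.73 ± 0.38). The listed lengths sum all annotated exons, so genes with unused exons read low on this scale.

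Ratios of counts within a library, which need no scaling, were compared for 5 pairs by two-sided exact permutation tests over samples, adjusted over the 5, and the smallest p such a test allows is 0.0079. The ratio of BIRC3 to BIRC2 was 0.865, 0.905, 0.872, 0.947 and 0.891 in ADC libraries 1 to 5, against 0.767, 0.733, 0.830, 0.734 and 0.796 in PBS libraries 1 to 5. All ADC ratios lay above all PBS ratios. How often other gene pairs separate in this way was not computed, while 14.2% of single tested genes had no overlap in CPM. The log2 ratio was higher by 0.22 in ADC (exact p = 0.0079, adjusted p = 0.020), so in these libraries BIRC2 fell by more than BIRC3. BIRC2 alone had a log2 fold change of -0.34 without overlap, so this ratio is not independent of its call.

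The ratio of CASP8 to CFLAR, which encodes the catalytically inactive caspase-8 homolog FLIP and lies 56755 bases upstream of CASP8, was 0.992, 1.07, 0.893, 1.09 and 0.970 in ADC, against 1.11, 1.18, 1.17, 1.25 and 1.14 in PBS libraries. The groups did not overlap, and again the share of other gene pairs that separate was not computed. The log2 ratio was lower by 0.22 in ADC, at 0.0020 ± 0.12 in ADC and 0.23 ± 0.065 in PBS libraries (SD, n = 5 each), with an exact p of 0.0079 and an adjusted p of 0.020. Neither gene was called alone in the edgeR test on all libraries, but CFLAR was called in 4 of 18 alternative settings. CASP8 had a log2 fold change of -0.080, smaller in size than that of CFLAR. CFLAR had 38.5 ± 2.10 CPM in ADC and 34.8 ± 1.79 CPM in PBS libraries (SD, n = 5 each), with a log2 fold change of 0.14 (edgeR adjusted p = 0.069), and 10.1% of its exonic bases overlap a gene on the other strand. The PBS library with the highest ratio was replicate 4, and leaving it out gave an adjusted p of 0.060 over the 5 ratios. The remaining PBS ratios still lay above all ADC ratios, and the two-sided exact test then compared groups of unequal size.

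For the apoptosome, the log2 ratio of CASP9 to APAF1 was -1.64 ± 0.19 in ADC and -1.95 ± 0.25 in PBS libraries (SD, n = 5 each), and the groups overlapped (exact p = 0.056, adjusted p = 0.069). It passed without PBS replicate 2, at a difference of 0.38 and adjusted p = 0.020. Leaving out any other single library kept it above the threshold, at adjusted p of up to 0.15 in the same exact test. The log2 ratio of CYCS to APAF1 was 3.61 ± 0.18 in ADC and 3.87 ± 0.12 in PBS libraries (SD, n = 5 each), also with overlap (exact p = 0.032, adjusted p = 0.053). ADC library 5 lay within the PBS range, and without it the difference was -0.34 at adjusted p = 0.026. Without any other single library this ratio did not pass, at adjusted p of up to 0.12 in the exact test. APAF1 itself was not called (log2 fold change 0.073, edgeR adjusted p = 0.52). Its value was 0.042 without ADC replicate 2, 0.13 without ADC replicate 5, 0.13 without PBS replicate 3 and 0.044 without PBS replicate 5, not called in any of these, and 9.48% of its exonic bases overlap a gene on the other strand.

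The log2 ratio of XIAP to DIABLO, which encodes the mitochondrial antagonist of XIAP, was 6.83 ± 0.33 in ADC and 6.61 ± 0.69 in PBS libraries (SD, n = 5 each) and did not pass (exact p = 0.56, adjusted p = 0.56). Without PBS replicate 1 the difference reversed to -0.012. DIABLO had 14 to 23 counts per ADC and 14 to 53 per PBS library. On its strand, 29.6% of its exonic bases overlap other entries, and another row of DIABLO itself is among the overlapping entries. How reads shared between rows were counted is not given, so the level of DIABLO and this ratio are uncertain.

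**Figure D2:**
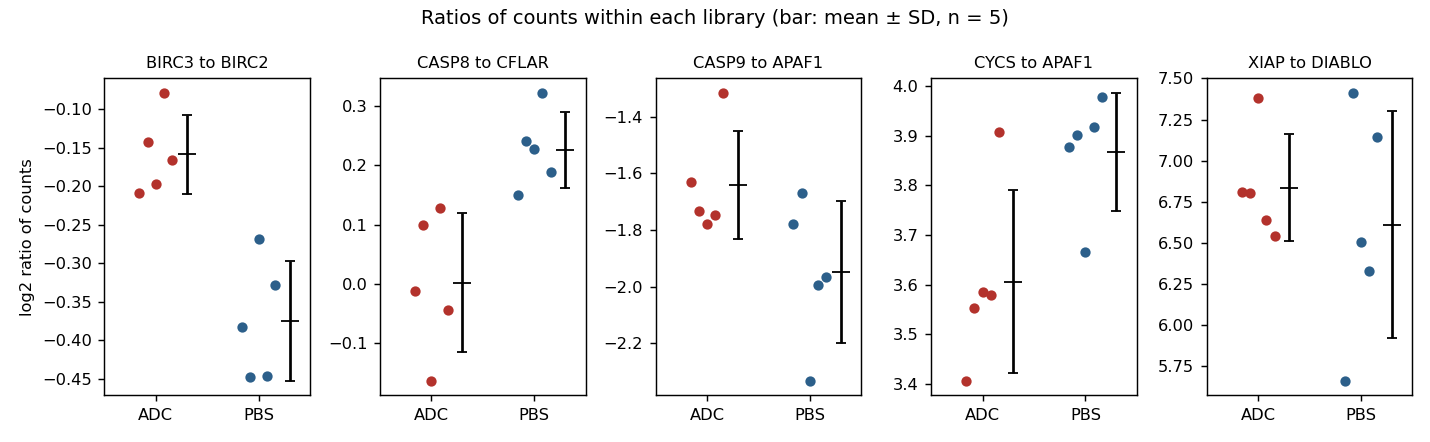
Log2 ratio of counts (vertical axis, own scale per panel) for 5 gene pairs in 5 ADC and 5 PBS libraries; points are libraries and bars the mean ± SD. The groups are separate for BIRC3 to BIRC2, higher in ADC, and for CASP8 to CFLAR, lower in ADC, and overlap for the other 3 pairs. How often other gene pairs separate was not computed.

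A wider list of 52 other pathway symbols, aliases included, matched 51 rows in the table, of which 41 were tested, and 3 of these were higher and 5 lower, or 8 of 41 against 20.8% of all tested genes. Their median log2 fold change was 0.014. Of the 10 rows that were not tested, CASP5, CASP12, CASP14, BIRC7, BIRC8 and RIPK3 had 0 counts in all 10 libraries. NAIP, XAF1, SEPT4 and the other DIABLO row had at most 10 counts in any library. A count of 0 allows up to 0.106 CPM in the shallowest library, for counting error only.

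Of the other caspases in the list 3 were tested (CASP1, CASP4 and CASP10), and none passed: their log2 fold changes lay between 0.042 and 0.58, at edgeR adjusted p of 0.11 to 0.60. CASP1 and CASP4 are inflammatory caspases and CASP10 is a death receptor caspase; these 3 were named after their values were seen.

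Of the 2 other inhibitors tested, BIRC5 (survivin), which also serves chromosome segregation, fell, with 233 ± 7.73 CPM in ADC and 253 ± 11.8 CPM in PBS libraries (SD, n = 5 each) and a log2 fold change of -0.12 (SE 0.035, edgeR adjusted p = 0.0096). The groups overlapped for BIRC5, with ADC library 5 (243 CPM) above PBS library 4 (240 CPM). Neither of the 2 IAP antagonists tested was called. Among 6 apoptosome and mitochondrial genes 1 rose, the mitochondrial nuclease gene ENDOG, and 5 were not called. For comparison, 20.8% of all tested genes were called in either direction. ENDOG had 9.78 ± 0.795 CPM in ADC and 7.03 ± 0.873 CPM in PBS libraries (SD, n = 5 each), with no overlap, and a log2 fold change of 0.47 (SE 0.11, edgeR adjusted p = 0.0016). However, 39.2% of its exonic bases overlap a gene on the other strand, and no source used here gives the strand setting of the counts.

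Of 12 death receptor and adaptor genes 1 rose, 1 fell and 10 were not called, where 10.8% of all tested genes rose and 10% fell. The receptor gene TNFRSF10B rose, with a log2 fold change of 0.10 (SE 0.038, edgeR adjusted p = 0.049), a call that was lost on leaving out any of 8 libraries and with no filter on low counts (adjusted p = 0.069). Its groups overlapped, with ADC library 5 (130 CPM) below PBS library 3 (134 CPM). TRAF2, the adaptor that recruits BIRC2 and BIRC3 to receptor complexes, fell, with 53.7 ± 4.29 CPM in ADC and 61.6 ± 3.45 CPM in PBS libraries (SD, n = 5 each) and a log2 fold change of -0.20 (SE 0.054, edgeR adjusted p = 0.0068). ADC library 5 (58.3 CPM) lay above PBS library 1 (57.0 CPM) in TRAF2, so the groups overlapped. The 2 PIDDosome partners of CASP2 were not called, nor was MLKL, the effector of necroptosis.

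Of 13 caspase substrates tested 1 rose, 3 fell and 9 were not called. Over all tested genes, 10.8% were called higher and 10% lower by the same test. Lamin B1 (LMNB1) fell by 0.18 on the log2 scale (SE 0.031, edgeR adjusted p = 5.0e-05), at 226 ± 4.99 CPM in ADC and 256 ± 4.94 CPM in PBS libraries (SD, n = 5 each). The spectrin gene SPTAN1 fell by 0.15 (SE 0.034, edgeR adjusted p = 0.0017), and PARP1, which signals DNA breaks, by 0.092 (edgeR adjusted p = 0.031, lost on leaving out any of 5 libraries, with library size alone at -0.070 and adjusted p = 0.088, and with no filter on low counts at adjusted p = 0.054). ACIN1, linked to chromatin condensation in apoptosis and to splicing, rose by 0.18 (SE 0.036, edgeR adjusted p = 0.00048), at 244 ± 11.8 CPM in ADC and 216 ± 8.45 CPM in PBS libraries (SD, n = 5 each). Of its exonic bases, 7.03% overlap a gene on the other strand.

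**Figure D3:**
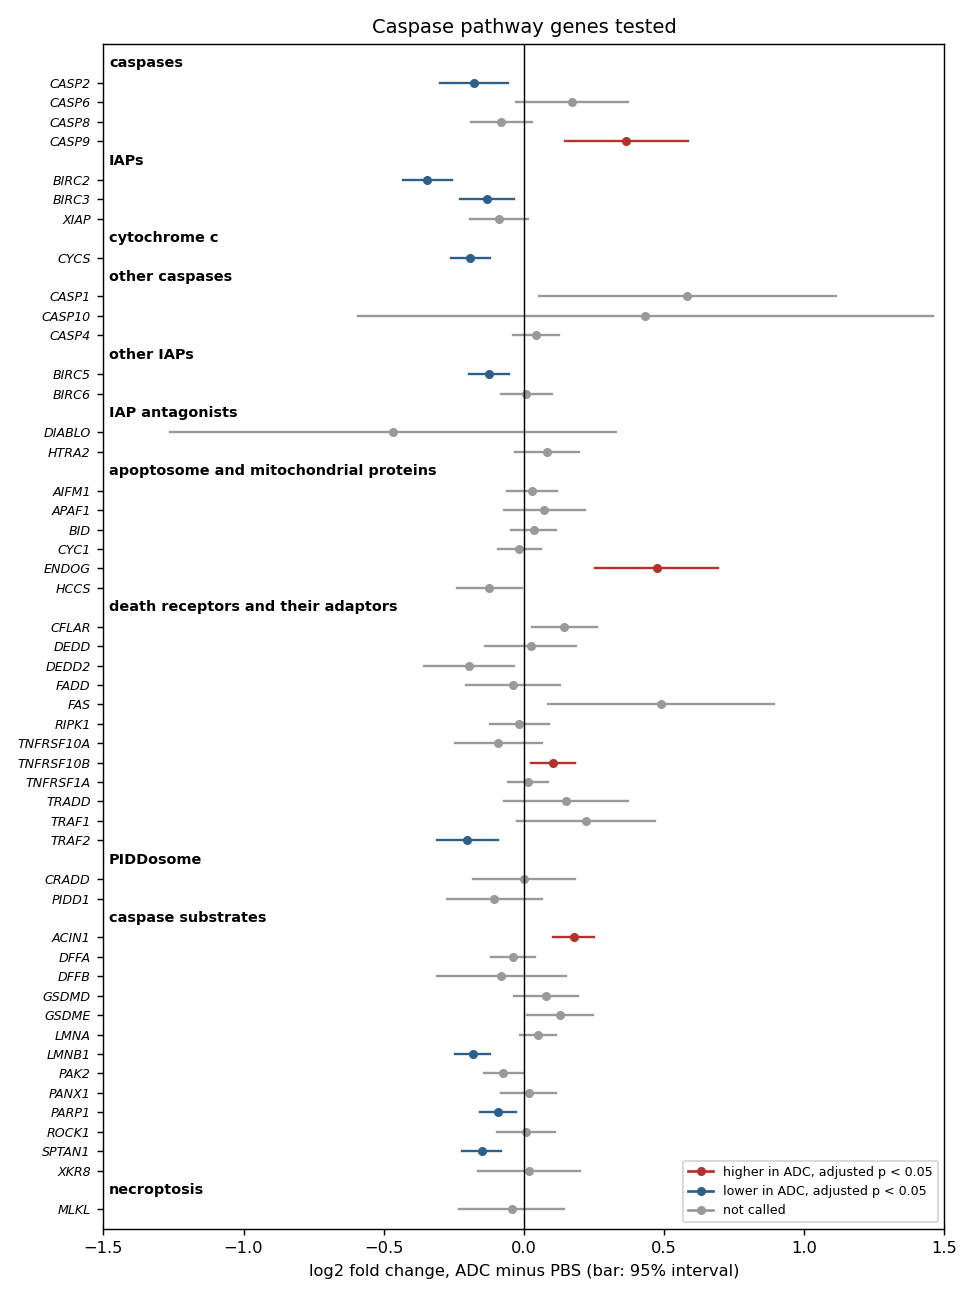
Log2 fold change, ADC minus PBS (horizontal axis), of the 8 genes and the 41 other pathway genes tested, with 95% intervals; red is higher and blue lower at edgeR adjusted p under 0.05, and grey is not called. CASP9, ENDOG, TNFRSF10B and ACIN1 are called higher, and BIRC2 has the largest decrease among the called genes.

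After the mean of each group was subtracted, log2 CPM was correlated over the 10 libraries. Over all pairs of the 8 genes, Pearson correlations ran from -0.59 (CASP2 and CASP9) to 0.55 (CASP8 and CASP9), so these are the extremes of the set. The neighbours BIRC2 and BIRC3 had 0.50, while BIRC3 had -0.53 with CASP9 and -0.52 with CASP6, and BIRC2 had -0.52 with CASP6. Among 9629 protein-coding genes with at least 5 CPM, the closest to each of the 8 were ABCG2 for CYCS (r = 0.98), WWC1 for CASP2 (0.96), HACD3 for CASP6 (0.95), SMARCB1 for CASP9 (0.94), THOC2 for BIRC2 (0.94), INPP5F for BIRC3 (0.93), FCHSD1 for CASP8 (0.92) and CEP76 for XIAP (0.92). These correlations describe 10 libraries, and all genes of a library share its depth and scaling. Each of the last 8 is the highest of 9629.

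Across the series, total counts ranged from 28638057 to 36463724 per ADC library and from 28262162 to 34473795 per PBS library. SSTR2, the antibody's target, had 0.430 ± 0.103 CPM in ADC and 0.297 ± 0.263 CPM in PBS libraries (SD, n = 5 each) and was not called (edgeR adjusted p = 0.50). Of 8 meningioma and arachnoid markers only VIM and CLDN11 exceeded 1 CPM, so the labelled cell type rests on few of them. CLDN11 had 364 ± 7.43 CPM in ADC and 389 ± 6.70 CPM in PBS libraries (SD, n = 5 each) without overlap and was called lower, by 0.096 on the log2 scale (edgeR adjusted p = 0.019), while VIM was not called (edgeR adjusted p = 0.13). Of 10 leukocyte markers 6 were at 0 counts in all libraries and CSF1R alone exceeded 1 CPM in a group; they summed to 2.02 to 3.01 CPM in ADC and 0.545 to 2.40 CPM in PBS libraries. The 5 endothelial markers, mostly TIE1, summed to 12.8 to 14.3 CPM in ADC and 10.01 to 11.5 CPM in PBS libraries, with PECAM1 at 1.98 ± 0.337 CPM in ADC and 0.576 ± 0.112 CPM in PBS libraries (SD, n = 5 each), called higher (edgeR adjusted p = 2.4e-05). The part of these markers in the results was not tested.

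**Figure D4:**
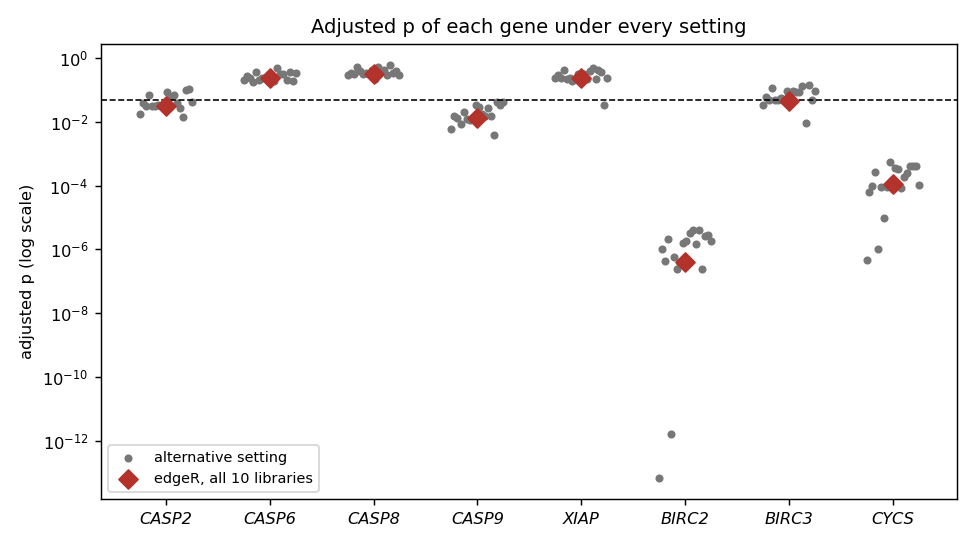
Adjusted p (log axis) of the 8 genes in the edgeR test on all 10 libraries (diamonds) and under the 18 or 19 alternative settings (dots); the dashed line marks 0.05. BIRC2, CYCS and CASP9 stay under the line in every setting, CASP2 and BIRC3 lie on both sides, and XIAP crosses it in 1.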

How the data were processed

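Poly(A) RNA of CH157-MN cells was sequenced in 5 ADC and 5 PBS libraries, grouped by the treatment labels. The authors deposited whole-number counts per gene, not normalised, with a listed gene length. Per the submitters' processing notes, the build was hg38, and the tools listed, with no role, were HISAT2, HISAT and TopHat2. How reads were counted, on which strand and against which annotation is not given in the sources used. Counts of 2 to 21 were even in 65.4% to 67.3% of cases, so both mates of a pair may have been counted.

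Counts were TMM-scaled and filtered (filterByExpr, minimum count 10, minimum total 15), and ADC was compared with PBS by the quasi-likelihood test of edgeR (version 4.0.16, under R 4.3.3; common coefficient of variation 7.60%), two-sided, with Benjamini-Hochberg adjustment over 14504 genes. The SE is the absolute log2 fold change over the square root of F. Alternatives used DESeq2 1.42.0 and limma 3.58.1 (voom), other scalings and filters, halved counts, the replicate number as a block, and each library left out. Within-library ratios used a pseudocount of 0.5. Exon overlap came from GENCODE 29. The fits were tested on simulated data.

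Libraries of a group differed beyond sampling noise (5.18 to 16.5 in chi-square over its degrees of freedom). Nothing says that replicates were separate cultures, so p-values reflect the spread among these libraries, possibly technical. The labels name no batch. The members and lists were chosen with earlier results of these data known, and the promoter motifs after the sequences were seen. Genes of the pathway lists are named if called, with at least 1 CPM in a group, or if they are APAF1, DIABLO or CFLAR. Some genes of the lists are not reported here. Untested rows and MLKL were named in addition, after their values were seen.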

Additional observations from a re-analysis of the deposited data

How the results depend on the processing

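Over 146 refits of the 8 genes, 129 kept their side of the threshold and 0 changed direction. Of the 8 genes, 5 were called with all libraries and 3 with library size alone, where CASP2 (-0.16, adjusted p = 0.069) and BIRC3 (-0.11, adjusted p = 0.12) were lost. BIRC3 was also lost with limma-voom (-0.13, adjusted p = 0.059). Leaving out single libraries gave 3 to 5 called genes, 3 without ADC replicate 3, ADC replicate 4 or PBS replicate 3, while 1311 to 1595 of all genes were higher and 1180 to 1385 lower. Log2 fold changes then ranged from -0.21 to -0.14 for CASP2, from -0.17 to -0.11 for BIRC3, from -0.14 to -0.062 for XIAP, from -0.10 to -0.046 for CASP8 and from 0.042 to 0.13 for APAF1. The differences in log2 ratio ranged from 0.20 to 0.24 for BIRC3 to BIRC2, from -0.26 to -0.18 for CASP8 to CFLAR, from 0.21 to 0.38 for CASP9 to APAF1, from -0.34 to -0.21 for CYCS to APAF1 and from -0.012 to 0.43 for XIAP to DIABLO. The cause was not tested.

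Samples with the same number did not deviate together (correlations of -0.0072 to 0.040 over 5 pairs, and 1 of 5 ADC libraries correlated best with its own number). With the replicate number as a block, 1632 genes were higher and 1520 lower, against 1562 and 1456 without it. BIRC3 then stood at -0.13 (adjusted p = 0.055). An exact sign-flip test of 5 pairs cannot pass after adjustment: the replicate block gave 0.22 for BIRC3 to BIRC2 and -0.22 for CASP8 to CFLAR, each at adjusted p = 0.10. CFLAR passed with DESeq2 (adjusted p = 0.045), library size alone (0.032) and without ADC replicate 4 or PBS replicate 2 (0.032 and 0.033). Summing both DIABLO rows, an alternative chosen after seeing the data, changed no call. Genes near 10 CPM, such as CASP6 and CASP9, have the widest intervals of the 8.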
